A study of Mus musculus with 4 samples.

Results

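The 10 genes described here are known as readouts or modulators of Bmp signalling, and were followed in mouse otocysts: Id1, Id2, Id3, Id4, Smad6, Smad7, Smad9, Msx1, Msx2 and Bambi. They were taken by name from the array's annotation, and each had 1 probe printed as 1 spot, so that 10 of the 31791 gene names on the array are described. The members were chosen by gene name, not by their values, although earlier results of these data were known. Otocysts, the epithelial vesicles that form the inner ear, were dissected at E10.5 from embryos of the NMRI strain. The mutants carried Pax2-cre with both copies of Tbx2 and Tbx3 floxed (Tbx2/3cDKO), and controls carried floxed Tbx2 and Tbx3 with no cre in the label. The question mark in the control genotype does not say whether the other copy was floxed. Pax2-cre acts where Pax2 regulatory sequence is active, so tissue of the dissected piece without cre activity would keep both genes.

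Each of 4 arrays carried 1 mutant and 1 control RNA in different dyes, with dyes swapped on 2 arrays. By the labels, female RNAs were compared on replicates 1 and 2, and male RNAs on the other two. The arrays shared 1 slide, and between 58.4% and 63.2% of spots in a channel were well above background. No label tells whether the RNAs came from separate animals or pools, so p-values measure the spread between these samples alone, which may be technical. The log2 ratio of mutant over control was -3.43 ± 0.16 for the targeted gene Tbx3 (SD, n = 4 arrays), while Tbx2, at 0.06 ± 0.23, is read by a probe whose place relative to the deleted part is unknown here. All 12 otic epithelium markers examined were well above background in both genotypes on every array, among them Oc90, an otoconial protein gene.

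Bmp ligands bind pairs of type I and type II receptors, which phosphorylate Smad1, Smad5 and Smad9. These join Smad4, enter the nucleus and activate target genes. Among the most direct targets are the Id genes, whose proteins bind E proteins and keep basic helix-loop-helix factors off DNA. Smad6, Smad7 and Bambi are induced by the pathway and restrain it, and the homeobox genes Msx1 and Msx2 respond to Bmp in many embryonic tissues. In the otic vesicle, Bmp signals take part in patterning and in the formation of sensory organs.

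All 9 members that could be tested were lower in the mutant on each of the 4 arrays, and 8 of them passed the test: Smad9, the 4 Id genes, Smad6, Smad7 and Msx1. The test was limma's moderated fit over 23177 probes with a Benjamini-Hochberg adjusted p under 0.05. Of all probes tested, 9.68% were called lower, and 20.1% were lower on all 4 arrays. The median log2 ratio of the 9 members was -0.48, against 0.00 for all genes tested by their brightest probe. The sizes ranged from 2.05-fold lower for Smad9 to 1.15-fold lower for Msx2, which missed the threshold with an adjusted p of 0.0693. Bambi, the remaining gene, was too dim to test. On the same arrays 8 of 12 otic epithelium markers were lower and 1 higher, while all 10 erythroid and all 10 endothelial markers were higher. Over all genes tested, 9.79% were called lower and 13.1% higher. The part of these markers in the results was not tested. RNA came from whole dissected tissue, so fewer cells of a type and less RNA per cell cannot be told apart here.

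**Figure D1:**
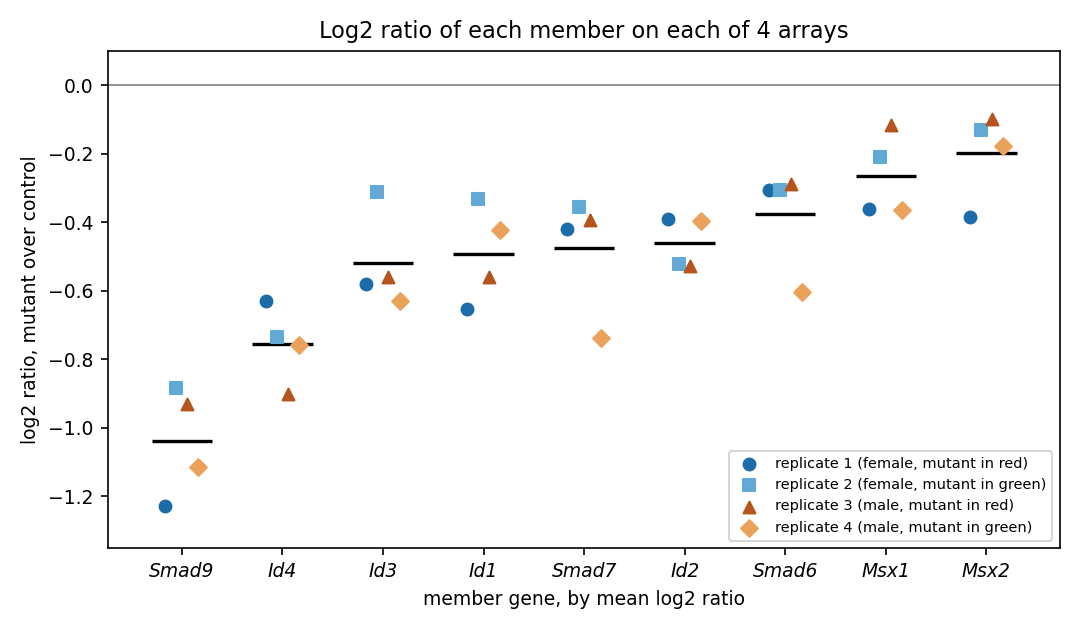
Log2 ratio of mutant over control (y axis) for the 9 tested members (x axis), with 1 symbol per array and a bar at the mean of the 4 arrays. Every symbol lies below 0, Smad9 is the lowest gene on each array, and Smad6 and Smad7 share a low symbol for replicate 4.

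Smad9, which carries the signal of activated Bmp receptors into the nucleus, had the largest fall. Its control RNAs had normalized log2 channel levels of 8.51, 8.47, 8.42 and 8.56 on replicates 1 to 4, and its mutant RNAs 7.28, 7.59, 7.49 and 7.45. The mutant and control levels did not overlap, and the lowest control lay above the highest mutant by several times the SD within either genotype (0.06 in controls and 0.13 in mutants). The log2 ratio was -1.04 ± 0.16 (SD, n = 4 arrays), with a limma SE of 0.07, a 95% interval from -1.21 to -0.87 and an adjusted p of 0.000128. That left 48.7% of the control level, and 0.475% of all probes tested had a lower log2 ratio. In mm9 this probe maps to chromosome 3, 54605068 to 54605127.

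The size of this fall was less certain than its direction, because the Smad9 spot was dim. Its mutant signal was 1.89 to 4.56 times the local background and its control signal 4.69 to 9.71 times, although both were well above background on all 4 arrays. With the log ratios computed by the scanner software, Smad9 came out 3.00-fold lower, at -1.83, -1.42, -1.41 and -1.68 on replicates 1 to 4. The mean was -1.59 ± 0.21 (SD, n = 4), with a limma adjusted p of 0.000853. The normexp correction adds an offset of 50 that pulls dim ratios toward 0; with an offset of 1 the log2 ratio was -1.31. For the other 8 tested members both ways gave nearly the same value, the widest gap being for Smad7, at -0.48 against -0.53.

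**Figure D2:**
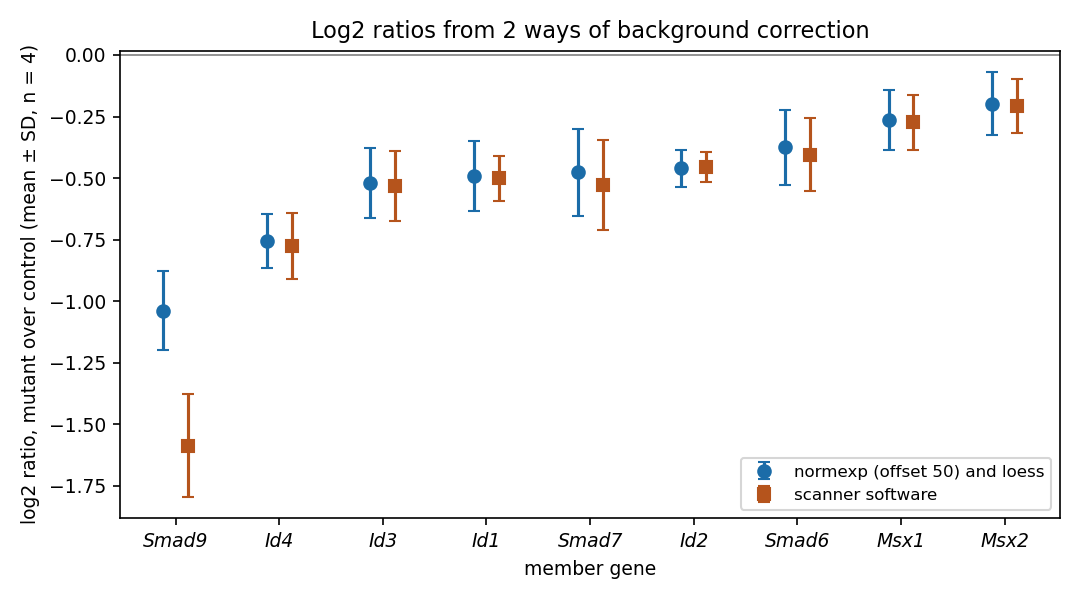
Mean log2 ratio of mutant over control with SD over 4 arrays (y axis) for each tested member (x axis), from normexp and loess (circles) and from the scanner software (squares). The pairs lie close together except for Smad9, at -1.04 and -1.59.

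Smad6 and Smad7, inhibitory Smads that block receptor signalling in a feedback loop, fell by similar amounts. The log2 ratios of Smad6 were -0.31, -0.31, -0.29 and -0.60 on replicates 1 to 4, and those of Smad7 were -0.42, -0.35, -0.39 and -0.74. In both genes replicates 1 to 3 were close together and replicate 4 was lower. Smad6 had a mean of -0.38 ± 0.15 (SD, n = 4 arrays; limma SE 0.06, adjusted p = 0.00622) and Smad7 one of -0.48 ± 0.18 (limma SE 0.07, adjusted p = 0.00368). Without replicate 4 the log2 ratios were -0.30 and -0.38, with adjusted p-values of 0.0126 and 0.00354. Smad6 levels were 10.84 to 10.97 in controls and 10.29 to 10.67 in mutants, and Smad7 levels 10.57 to 10.75 and 10.01 to 10.21, without overlap in either gene. Probe positions (mm9) are chromosome 9, 63800980 to 63801039, for Smad6 and chromosome 18, 75555371 to 75555430, for Smad7.

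Bambi, a membrane pseudoreceptor that lacks the kinase domain and dampens Bmp and activin signals, gave no measurable level. Its raw signal was 1.23 to 1.88 times the local background in mutants and 1.21 to 2.44 times in controls, and 0 of 4 arrays in either genotype had it well above background. It was therefore left out of the test. Its unfiltered log2 ratios of -0.12, 0.06, -0.16 and 0.09 changed sign with the dye orientation, and show no direction.

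**Figure D3:**
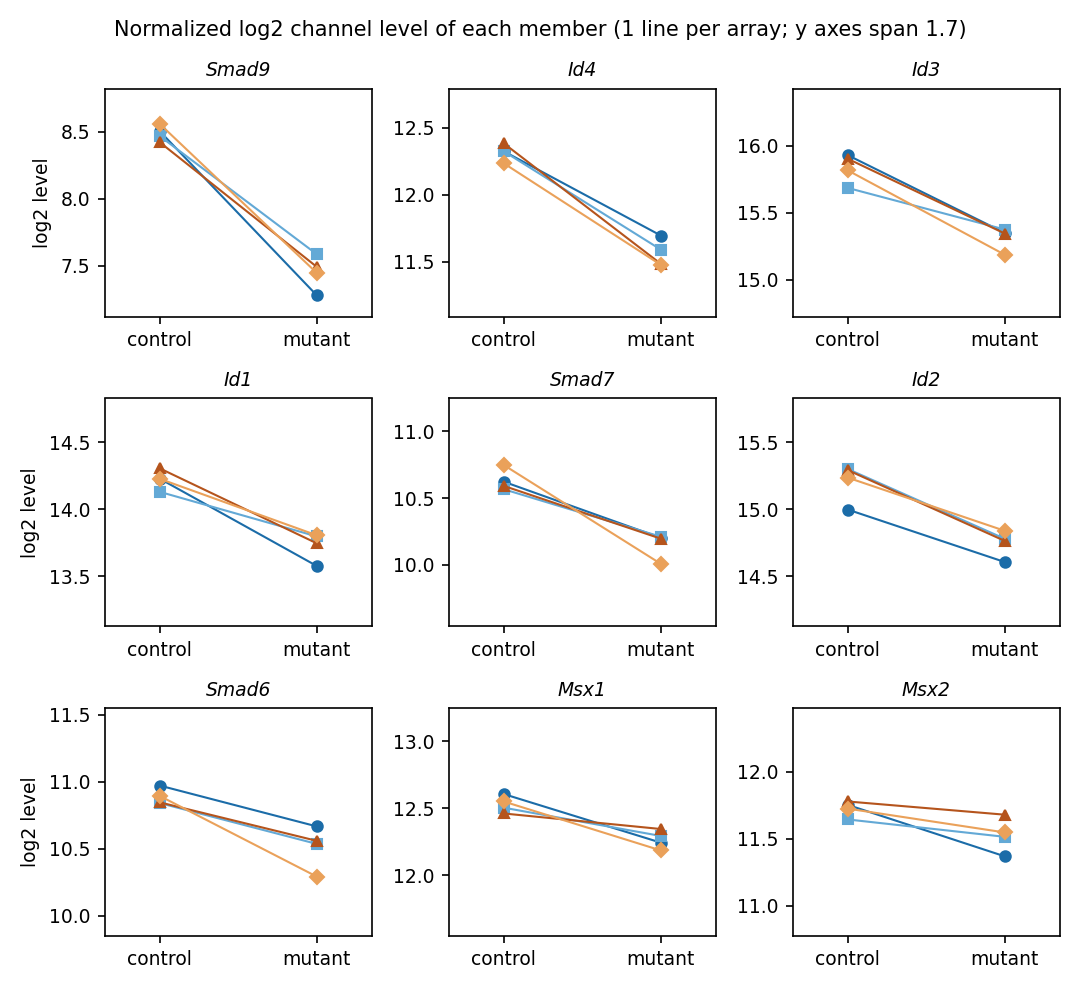
Normalized log2 channel level (y axis, each panel on its own range) of the 9 tested members in control and mutant RNA (x axis), 1 line per array. All 36 lines descend, and in the Msx2 panel the highest mutant RNA, at 11.68, lies above the lowest control RNA, at 11.64.

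The 4 Id genes all fell, Id4 the most. Id4, which is linked to neural progenitors, had levels of 12.32, 12.32, 12.38 and 12.23 in controls and of 11.69, 11.59, 11.48 and 11.48 in mutants on replicates 1 to 4. The groups were well apart, and the log2 ratio was -0.76 ± 0.11 (SD, n = 4 arrays; limma SE 0.06, adjusted p = 0.000272), or 1.69-fold lower. Its probe lies on chromosome 13 at 48358668 to 48358727 (mm9).

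Id1, Id2 and Id3, widely expressed and often used as direct readouts of Bmp signalling, fell 1.38- to 1.43-fold. Id3, the brightest of the member spots at 446 to 1594 times the local background, had control levels of 15.93, 15.69, 15.90 and 15.82 and mutant levels of 15.35, 15.37, 15.34 and 15.19 on replicates 1 to 4. The 2 sets were apart, and replicate 2, with the lowest control, had the smallest difference. The mean log2 ratio was -0.52 ± 0.14 (SD, n = 4 arrays; limma SE 0.07, adjusted p = 0.00171), from -0.63 on replicate 4 to -0.31 on replicate 2.

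Id1 had control levels of 14.23, 14.13, 14.31 and 14.23 and mutant levels of 13.58, 13.80, 13.75 and 13.81. Its log2 ratios were -0.65 and -0.56 on the arrays with the mutant in the red dye and -0.33 and -0.42 on those with the mutant in the green dye, so the 2 orientations did not overlap; the fit gave it a dye term of -0.11, the furthest from 0 among the tested members. The genotype effect, averaged over both orientations, was -0.49 ± 0.14 (SD, n = 4 arrays; limma adjusted p = 0.000823). Id2 had control levels of 15.00, 15.30, 15.29 and 15.24 and mutant levels of 14.61, 14.78, 14.76 and 14.84. Its log2 ratios, from -0.53 to -0.39, had the smallest spread of the 9 tested members, with a mean of -0.46 ± 0.08 (limma adjusted p = 0.00139).

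In 8 of the 9 tested members, all but Msx2, every mutant level lay below every control level, an arrangement found for 10.1% of all probes tested. These 8 are the members that passed the test on the same arrays, so this is not separate support. The nearest approach of the Id genes was in Id2, between the highest mutant at 14.84 and the lowest control at 15.00. The Id1 probe maps to chromosome 2, 152563083 to 152563142, and the Id2 probe to chromosome 12, 25778904 to 25778963, in mm9.

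The Id3 probe reads across a gap in the genome: its 60 bases span 175 bases of chromosome 4 (mm9, 135700075 to 135700249), which leaves 115 bases between its parts. It is shown because such a probe reads spliced RNA. Its bases stay without a stop codon in 1 frame, as do those of the Id1, Smad6 and Msx2 probes, and those of Msx1 in 2 frames. The probes of the other members each lie in 1 unbroken block of 60 bases. Exon and UTR annotation for mm9 was not used here.
Id3 probe: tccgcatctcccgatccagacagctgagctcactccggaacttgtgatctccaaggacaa

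Msx1 and Msx2, homeobox repressors of the dorsal neural tube, limb and neural crest, were the least changed. Msx1 had log2 ratios of -0.36, -0.21, -0.12 and -0.37 on replicates 1 to 4 and a mean of -0.26 ± 0.12 (SD, n = 4 arrays; limma SE 0.06, adjusted p = 0.0251), or 1.20-fold lower. Its mutant levels were 12.24, 12.29, 12.35 and 12.19 and its control levels 12.61, 12.50, 12.46 and 12.55, without overlap. The call depended on single arrays, since the adjusted p was 0.139 without replicate 1 and 0.0734 without replicate 4. Msx2 had -0.38, -0.13, -0.10 and -0.18, with a mean of -0.20 ± 0.13 (95% interval from -0.35 to -0.05), and its mutant levels (11.37 to 11.68) overlapped its control levels (11.64 to 11.78). Replicate 1 was the lowest of its arrays, and without it the log2 ratio was -0.13 (limma adjusted p = 0.330). The probes lie on chromosome 5 at 38212305 to 38212364 (Msx1) and chromosome 13 at 53562318 to 53562377 (Msx2) in mm9.

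By mean log2 ratio the order was Smad9, Id4, Id3, Id1, Smad7, Id2, Smad6, Msx1 and Msx2. Id4 was less negative than Smad9 on all 4 arrays, by 0.28 ± 0.25 on average (SD, n = 4), and Id3 less negative than Id4 on all 4, by 0.24 ± 0.18. From Id3 to Id2 the neighbours differed by at most 0.03, less than the SD of their difference, and changed places between arrays. The steps from Id2 to Smad6, to Msx1 and to Msx2 were 0.08, 0.11 and 0.07, each within 1 SD of the difference and each seen on 3 of 4 arrays. No test was run on these steps.

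Over the 36 pairs of tested members, the mean absolute difference of the log2 ratios over the 4 arrays was smallest for Id1 and Id3 (0.0758), Msx1 and Msx2 (0.0769) and Smad6 and Smad7 (0.101). Other pairs of one family lay further apart, such as Id2 and Id4 (0.296) and Smad6 and Smad9 (0.663), and some pairs across families lay closer than these, such as Id3 and Smad7 (0.119). Among 13445 other named genes, those nearest to Smad9 by this measure were the homeobox gene Hmx1 (0.0869), Vmo1 (0.0934) and the homeobox gene Evx1 (0.110). Their log2 ratios were -0.97, -1.04 and -0.93.

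The median of the 9 members was -0.42, -0.33, -0.53 and -0.60 on replicates 1 to 4. Smad9 was the lowest member on each array, and the highest was Msx2 on replicates 2 to 4 and Smad6 on replicate 1. No difference between the sexes was detectable: in a fit with a genotype by sex term, 0 of 9 members passed an adjusted p of 0.05 or an unadjusted p of 0.05, against 0.0173% of all probes called. The 95% intervals of the difference were wide, reaching from -0.10 to 0.46 for Smad7, where the mean was -0.39 in females and -0.57 in males, and from -0.23 to 0.22 for Id1. The sex term leaves 1 residual degree of freedom.

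Sequence upstream of the start site was at hand for 7 of the 10 members, from RefSeq on GRCm38.p6, and both strands of the 250 bases before the start were searched for 3 motifs. The GC-rich Smad site GGCGCC was in 3 of the 7 windows, those of Smad9, Id4 and Id2, and these 3 are printed because they hold a match. The windows of Id3, Smad6, Msx1 and Msx2 lack the site. Over all 32851 promoters of that length 9.59% hold it. The 7 windows are rich in G and C (61.6% to 75.6%, against a median of 52.4%), and among the 6883 promoters in that range 24.7% hold it. The palindromic Smad box GTCTAGAC (0.167% of all promoters) and the T-box half-site GGTGTGA (3.33%) were in none of the 7 windows. The match starts 51 bases before the start in Smad9, 148 in Id4 and 231 in Id2, and is set in capitals. A match is a description of letters only.
Smad9, chr3:54755332-54755581, plus strand: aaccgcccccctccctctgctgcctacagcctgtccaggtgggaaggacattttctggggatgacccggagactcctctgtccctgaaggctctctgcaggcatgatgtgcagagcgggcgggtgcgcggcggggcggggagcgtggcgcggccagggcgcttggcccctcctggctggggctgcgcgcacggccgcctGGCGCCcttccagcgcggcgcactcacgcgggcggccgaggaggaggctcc
Id4, chr13:48260866-48261115, plus strand: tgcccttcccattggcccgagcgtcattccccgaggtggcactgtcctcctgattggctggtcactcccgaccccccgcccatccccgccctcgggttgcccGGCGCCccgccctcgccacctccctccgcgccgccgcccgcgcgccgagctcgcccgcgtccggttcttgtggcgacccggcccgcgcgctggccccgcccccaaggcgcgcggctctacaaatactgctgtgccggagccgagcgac
Id2, chr12:25096093-25096342, minus strand: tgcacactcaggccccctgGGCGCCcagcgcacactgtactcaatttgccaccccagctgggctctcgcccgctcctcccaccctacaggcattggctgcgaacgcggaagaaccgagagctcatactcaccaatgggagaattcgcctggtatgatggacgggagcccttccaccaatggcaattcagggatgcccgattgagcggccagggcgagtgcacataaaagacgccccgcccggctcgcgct

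The other parts of the pathway did not all move with these genes. The lists below were chosen with earlier results of these data known, and over all 18474 genes tested 9.79% were called lower and 13.1% higher. Of 9 Bmp ligand genes tested, 6 were lower and 2 higher, with a median log2 ratio of -0.23. The lower count was 3 without replicate 1 and 3 without replicate 3, while the higher count was 2 with any single array left out. Gdf6 had -3.10 ± 0.24 (SD, n = 4 arrays), a size that is uncertain because 1 of 4 mutant RNAs was well above background. Bmp2 and Bmp6 went the other way, with 0.72 ± 0.10 and 0.61 ± 0.07. Bmp4, named after its value was seen because it is a main ligand of the otocyst, had -0.25 ± 0.05 (limma adjusted p = 0.0135).

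Receptor genes were mixed, with 1 of 10 lower and 3 higher (median 0.08). For the type II receptor gene Bmpr2 the log2 ratio averaged -0.86 ± 0.28 (SD, n = 4 arrays), for Acvrl1, the type I receptor of endothelium, 0.48 ± 0.09, and for the co-receptor gene Rgmb 0.65 ± 0.23 (0.28 with its other probe). Without replicate 3 or without replicate 4, 2 receptor genes were lower. Of 12 transducer and cofactor genes, 0 were lower and 2 higher (median 0.13): Smad5 had 0.33 ± 0.03 (0.17 with its other probe), and Zeb2, a Smad-binding repressor, 0.84 ± 0.21 (0.21 with its other probe). So Smad5 rose where Smad9, of the same Smad class, fell, and Smad1, the remaining one (named after its value was seen), had 0.08 ± 0.13 (limma adjusted p = 0.421).

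Genes of secreted Bmp antagonists and modulators had 2 of 12 lower and 3 higher (median 0.02). Sostdc1 had -0.42 ± 0.16, Nbl1 0.45 ± 0.12 and Kcp, counted here as a modulator, 0.49 ± 0.36 (SD, n = 4 arrays). The lower count was 1 with any single array left out, and the higher count was 1 without replicate 1. Other genes known to respond to Bmp had the lowest median, -0.69, with 5 of 8 lower and 1 higher: Gata2 had -1.50 ± 0.19, Dlx5 -1.19 ± 0.22 and Dlx6 -1.31 ± 0.20. The higher one, Hey1 (named after its value was seen), lost its call with any single array left out. Among E protein genes, whose products the Id proteins bind, 2 of 3 were higher, Tcf4 with 0.34 ± 0.14 and Tcf12 with 0.28 ± 0.13 (0.02 with its other probe), and 1 was called when replicate 3 or replicate 4 was left out. In the Tgf-beta and activin branch 5 of 6 genes were higher (median 0.32), among them Tgfbi with 0.81 ± 0.05 and Tgfbr2 with 0.84 ± 0.14 (0.15 with its other probe); without replicate 3 the count was 2.

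**Figure D4:**
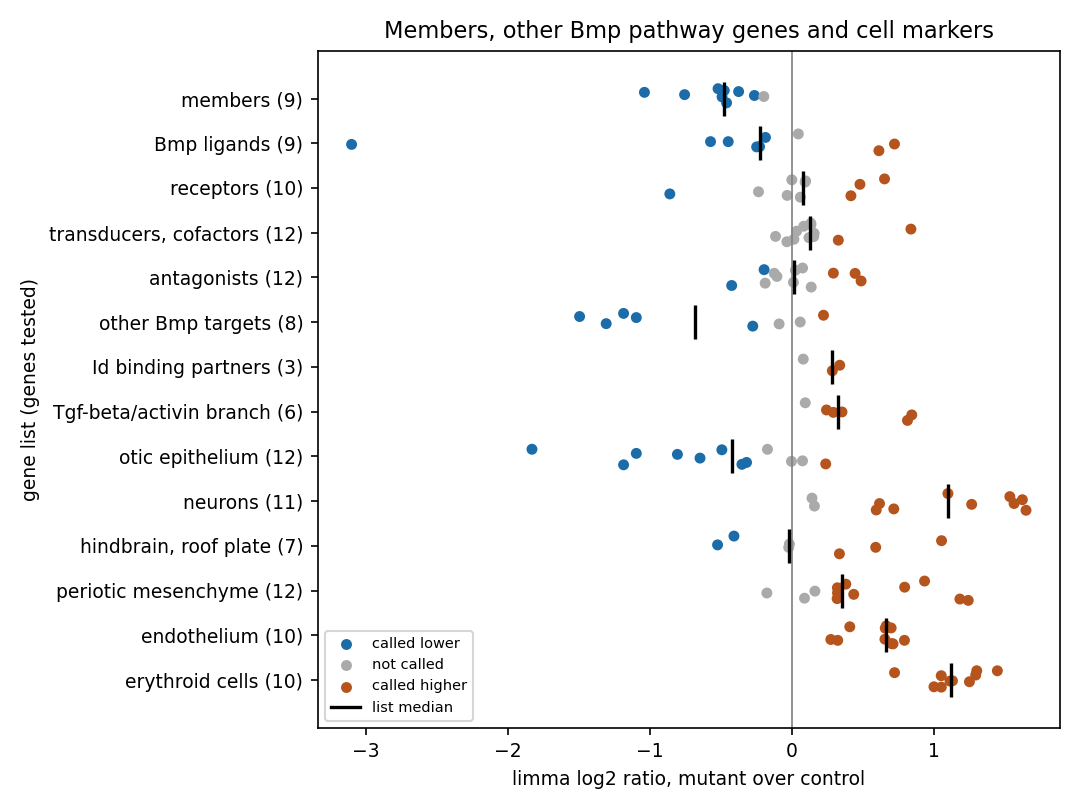
Limma log2 ratio of mutant over control (x axis) for each tested gene of the member list, of other pathway lists and of cell markers (y axis, number tested in brackets), coloured by call, with a bar at each list's median. The members, the other Bmp targets and the otic epithelium markers have medians of -0.48, -0.69 and -0.42, whereas the endothelial and erythroid markers have 0.66 and 1.12.

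Markers of cell types moved on the same arrays. Of 12 otic epithelium markers 8 were lower and 1 higher (median -0.42), and their summed level was 16.9 to 17.1 in mutants and 17.8 to 17.9 in controls on the log2 scale. Oc90 made up 48.8% of that sum in controls, and for the other 11 markers the summed level was 16.5 to 16.6 in mutants and 16.8 to 17.0 in controls, a mean difference of -0.32 against -0.86 with Oc90. Oc90 had -1.83 ± 0.24 (SD, n = 4 arrays), and Dlx5 and Gata3, with -1.19 ± 0.22 and -1.10 ± 0.22, stand in the Bmp target list too. The count of higher otic markers was 1 without replicate 4 and 0 with any other array left out. All 10 endothelial markers were higher (median 0.66), with a summed level of 14.6 to 14.7 against 14.0 to 14.2, and Sox17, Emcn and Plvap had 0.79 ± 0.07, 0.70 ± 0.06 and 0.66 ± 0.03 (0.17 with the other Plvap probe).

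All 10 erythroid markers were higher (median 1.12; summed level 19.7 to 19.8 against 18.1 to 18.7), with Hbb-bh1 at 1.45 ± 0.25, Hbb-y at 1.29 ± 0.47 and Slc4a1 at 1.11 ± 0.12 (SD, n = 4 arrays). Of 12 periotic mesenchyme markers 9 were higher and 0 lower (median 0.35; 15.9 to 16.1 against 15.6 to 15.7), with Osr1 at 1.24 ± 0.17, Foxc2 at 1.18 ± 0.17 and Foxc1 at 0.93 ± 0.09. Of 11 neuron markers 9 were higher and 0 lower (median 1.10; 14.5 to 14.8 against 13.9 to 14.0), with Nefm at 1.65 ± 0.07, Pou4f1 at 1.53 ± 0.08 and Ina at 1.27 ± 0.12. Hindbrain and roof plate markers had 3 of 7 higher and 2 lower (median -0.02; 15.1 to 15.3 against 15.0 to 15.2), with Pax3 at 1.05 ± 0.21 (0.60 with its other probe), Zic2 at 0.59 ± 0.14 and Lmx1a, also an otic gene, at -0.52 ± 0.09. Without Lmx1a, the brightest of the hindbrain markers, the summed level of the other 6 was 14.7 to 14.8 in mutants and 14.2 to 14.5 in controls. Of this list, Ttr, Wnt3a, Pax7, Gdf7 and Hoxb1 did not pass the filter on dim probes. Wnt1, Hoxb2, Pax3, Zic1 and Zic2 were well above background on 4 arrays in both genotypes.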

How the data were processed

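Spot intensities and local backgrounds (intensity, linear scale), log10 ratios of red over green and quality flags came, per the file headers, from the authors' run of Agilent's Feature Extraction software, version 10.7.3.1. The log10 ratios were background-subtracted and dye-normalized by that software, per the file headers. The deposited series value table holds signed folds (none between -1 and 1), with scale and direction not stated in it. As log2 they lay within 0.001 of the scanner's log2 ratios of mutant over control for 90.9% to 93.3% of 39429 probes, with a column median of 1. How the remaining values were made is unknown. With the direction reversed, 24.4% to 27.4% of probes lay within 0.001.

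Intensities were corrected with normexp (offset 50) and loess within arrays in limma 3.58.1 (R 4.3.3), with control spots at weight 0. Each array lost 21 to 32 spots marked non-uniform, and 0 spots were saturated. A probe entered the test if 3 or more of 4 arrays had it well above background in 1 genotype, except 25 with a missing array, which gave 23177. The model held genotype (the sign of the dye orientation) and dye, fitted with lmFit and eBayes (residual 2, prior 4.82 degrees of freedom), with Benjamini-Hochberg adjustment over all probes. A gene with several probes was read by its brightest one, and symbols for 26412 probes were updated by RefSeq accession. SDs are over the 4 turned ratios. Channel levels followed Aquantile scaling. The members and all lists were chosen with earlier results of these data known. Named were all members, Tbx2, Tbx3, up to 3 genes per list with the smallest adjusted p, and the 3 genes nearest to the most changed member; some genes of the lists are not reported here by name. The steps were tested on simulated data. Alternatives covered background, normalization, filter, model, probe rule and single arrays.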

Additional observations from a re-analysis of the deposited data

Results flagged for a closer look

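Each tested member's 4 log2 ratios, 4 mutant levels and 4 control levels were searched for a sample far from the other 3, 27 groups of 4 in all, and 4 were found, where chance gives about 1 in 20. The groups are not independent, because each log2 ratio is the mutant level less the control level of the same gene. Whether the count exceeds that rate was not tested. All 4 finds were on replicate 4. The log2 ratio of Smad6 was -0.60 there against -0.31 to -0.29 on the others, and that of Smad7 was -0.74 against -0.42 to -0.35. The mutant level of Smad7 was 10.01 against 10.20 to 10.21 on the others, and the mutant level of Id3 was 15.19 against 15.34 to 15.37.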

How the results depend on the processing

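Under 19 alternatives all 171 values of the 9 members were below 0, but many of these signs were fixed beforehand. Alternatives that changed only the filter, model, weights or probe rule left the log2 ratios as they were. Leaving out an array could not turn them positive, since each member was lower on all 4 arrays. The scanner ratios and the deposited values were nearly the same for these members. Of the 171 results, 168 stayed on the same side of the threshold. The 2 lost calls were those of Msx1 without replicate 1 (adjusted p = 0.139) and without replicate 4 (0.0734). The 1 gained call was that of Msx2 with the genotype by sex term added to the fit (limma adjusted p = 0.0295), so 9 members were called there. That fit leaves 1 residual degree of freedom, and it called 3339 of all probes lower. Leaving out single arrays gave 7 to 8 members called lower and 0 higher, and 2 lower and 38 to 41 higher markers of other cells. Over the Bmp lists, the E protein genes and the Tgf-beta and activin branch together, 9 to 12 genes were lower and 12 to 17 higher. With all arrays these counts were 14 and 18. Of the 18 higher genes, 2 were E protein genes and 5 were of the Tgf-beta and activin branch, which had 0 lower. Over all probes, 2244 were lower and 2869 higher, and without replicate 3 there were 1336 lower, with fewer samples fitted. Smad9 ranged from -1.59 to -0.96 over all alternatives. Treating channel levels as unpaired (no replicate block) left 8 members lower. The offset of 1 and the marker sums without the brightest gene were chosen after the data were seen. Signal over background limits the size given for Smad9 and any statement on Bambi.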
